A study of Homo sapiens with 4 samples.

Results

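The Eph receptors and their ephrin ligands were followed in SNU-16, an established human gastric carcinoma cell line, after its growth in mice. The 10 genes were taken by symbol (6 receptors and 4 ligands), and 9 of them have a row that carries their symbol alone, among 18417 genes with such a row. These are the receptors EPHA1, EPHA2, EPHA4, EPHB3 and EPHB4 and the ligands EFNA1, EFNA4, EFNB1 and EFNB2. EPHB2 is not analysed here, since no named row carries its symbol. Each of the 9 has 1 probe set, so no choice among probe sets was needed, and all 9 passed the signal minimum of 5.64 log2 units.

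Expression was measured on 4 arrays, with 2 sites crossed by 2 rounds of implantation. The ovary round 2 cells came from the ovarian metastasis that formed after SNU-16O cells, recovered from the ovary in round 1, were put into the stomach of BALB/c nude mice. The ovary round 1 cells came from the ovarian metastasis of the parental line. The stomach round 2 and round 1 cells came from the tumour at the stomach wall after implantation of SNU-16S cells and of the parental line. Every group thus shares the cell line, the orthotopic route and the nude host, which lacks T cells and keeps other leukocytes. Cells were cultured for 7 days after round 1, while the sources used here do not say whether round 2 cells were cultured before lysis, nor the ages or numbers of mice. The 2 ovary arrays are successive passages of 1 lineage, and so are the 2 stomach arrays. In a plain comparison of sites an SD or p-value therefore measures how far passages lie apart, which may be technical. In a plain comparison of rounds it measures how far the 2 sites lie apart. Where a fit removes what arrays of a round or site share, its p-value rests on how unequal the 2 remaining differences are. None of these measures how far independent tumours lie apart. The descriptions of both round 2 samples contradict their titles on the site, and the titles were followed. Round 1 alone is not touched by this, and its levels are given for every member.

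Eph receptors are the largest family of receptor tyrosine kinases. They bind ephrins on neighbouring cells, so that signals pass into both the cell with the receptor and the cell with the ligand, and in epithelia they are known for repulsion, sorting of cells and positioning along the crypt. Ephrin-A ligands are held to the membrane by a lipid anchor and bind mostly EphA receptors, whereas ephrin-B ligands span the membrane and bind mostly EphB receptors. EphA4 binds ligands of both classes.

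The stretches of 150 bases that end just before the annotated transcription start are shown for EPHA2, EPHA4, EFNB2, EFNA1 and EFNA4, the members with an unadjusted p under 0.05 in a site or round fit below or with sites that do not overlap. They are read 5′ to 3′ on the strand of the gene from RefSeq, build GRCh38.p14, and capitals mark a GC box, GGGCGG or its reverse complement.
EPHA2, chr1:16156070-16156219, minus strand: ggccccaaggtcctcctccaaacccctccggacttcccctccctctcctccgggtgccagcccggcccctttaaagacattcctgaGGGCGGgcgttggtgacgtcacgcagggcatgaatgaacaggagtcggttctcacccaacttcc
EPHA4 first listed start, chr2:221574203-221574352, minus strand: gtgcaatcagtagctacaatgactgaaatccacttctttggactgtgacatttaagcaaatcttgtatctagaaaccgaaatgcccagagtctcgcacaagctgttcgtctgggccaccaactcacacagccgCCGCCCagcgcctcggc
EPHA4 second listed start, chr2:221572305-221572454, minus strand: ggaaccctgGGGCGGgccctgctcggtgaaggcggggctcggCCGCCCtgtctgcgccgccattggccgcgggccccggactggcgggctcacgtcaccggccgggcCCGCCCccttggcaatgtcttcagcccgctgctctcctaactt
EFNB2, chr13:106535663-106535812, minus strand: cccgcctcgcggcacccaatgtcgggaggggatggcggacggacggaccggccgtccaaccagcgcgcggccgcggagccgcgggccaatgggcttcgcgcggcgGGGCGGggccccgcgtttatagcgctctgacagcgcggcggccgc
EFNA1, chr1:155127726-155127875, plus strand: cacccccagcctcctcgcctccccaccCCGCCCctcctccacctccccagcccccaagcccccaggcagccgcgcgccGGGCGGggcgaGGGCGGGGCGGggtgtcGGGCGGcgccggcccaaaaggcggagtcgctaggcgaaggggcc
EFNA4, chr1:155063590-155063739, plus strand: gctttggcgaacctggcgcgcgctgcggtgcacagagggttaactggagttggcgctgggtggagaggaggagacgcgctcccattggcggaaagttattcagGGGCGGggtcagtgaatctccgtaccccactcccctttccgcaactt
All 9 members matched RefSeq, with 10 listed starts in all, because EPHA4 has 2. A GC box was found before each of the 10 starts, against 36.8% of the 35116 windows of that length in the table, which holds several starts for some genes. The members' windows had 51.3% to 81.3% G and C, and the median of all windows was 60.0%. Only the first listed start of EPHA4 lay under that median. The GC box share was not compared with windows of like G and C content. The letters of a TCF motif, CTTTGA or CTTTGT on either strand, were in 0 of the 10 windows (13.9% of all windows). Those of an AP-1 motif, TGACTCA or TGAGTCA, were in 0 (2.89%). TATAAA on either strand was in 1, before EFNB2 (6.71%). It lies there on the strand opposite to the gene, so that the stretch shown reads tttata. These are matches of letters, from which nothing is drawn about the factors.

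The cells carried the epithelial identity that the label gives. All 8 epithelial markers with a row lay above the signal minimum on average, the summed log2 level of the 8 running from 90.28 to 92.22 in ovary and from 91.98 to 92.23 in stomach. Of 11 endothelial markers 7 passed that minimum, while PECAM1, KDR, TEK and EMCN lay under it. That minimum was also passed by 5 of 11 fibroblast markers and 8 of 11 leukocyte markers, PTPRC not among them. Of ovarian markers 5 of 11 passed, and of mesothelial markers 5 of 7. The median of a list on an array was 5.618 to 6.118 for endothelial, 5.46 to 5.611 for fibroblast and 5.952 to 6.065 for leukocyte markers. It was 5.461 to 5.685 for ovarian and 6.206 to 6.346 for mesothelial markers, against 11.576 to 11.816 for epithelial ones. Host cells would be murine, and how far human probe sets read them was not tested.

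The comparison of sites asked whether cells from ovarian metastases differed from cells of the stomach tumour. EPHA4, EFNB2 and EPHA2 stood higher in ovary in each round, and EFNA1, EFNA4 and EFNB1 stood lower in each round. The largest mean difference was that of EPHA4, 1.41-fold. None passed the test across all genes: limma called 0 of 9 members, and 0% of the 14547 genes tested. At an unadjusted p under 0.05, limma had 1 of the 9, EPHA4, against 2.60% of all genes. With the round as a block, which removes what both arrays of a round share, it had 4 of 9, EPHA2, EPHA4, EFNA1 and EFNB2, against 6.30% of all genes, and the smallest adjusted p of a member was 0.657. Levels below are log2 values. Site differences subtract stomach, round differences subtract round 1, both on the log2 scale, and each error is the standard error or 95% interval from limma with no block unless a block is named. In bulk samples such as these, fewer cells with a transcript and less of it per cell cannot be told apart.

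EPHA4 encodes the receptor that accepts ephrins of both classes. Its level was 6.58 in round 2 and 6.77 in round 1 in ovary, against 6.10 in round 2 and 6.25 in round 1 in stomach. Both ovary arrays thus lay above both stomach arrays, and the gap between the sites exceeded the gap between the rounds. All 4 values were low, under the array medians of 6.80 to 6.84. Those of stomach lay near the medians of the mesothelial marker list, 6.206 to 6.346. Whether signals at this level show expression of EPHA4 was not tested. The ovary mean was 6.67 ± 0.14 and the stomach mean 6.17 ± 0.11 (SD, n = 2 each). The difference was 0.50 (95% interval 0.19 to 0.81, limma adjusted p = 1.0), with 0.48 in round 2 and 0.52 in round 1, and its standard error was 0.12, or 0.087 with the round as a block. Only 30 of the 14547 genes, 0.206%, were at least as far above stomach by the smaller of their differences in the 2 rounds. Of the sum of squares between the 4 values of EPHA4, the site took 89.3%, against 26.6% over all tested genes.

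EPHA2 encodes the receptor for which ephrin-A1 is a principal ligand, and it is often abundant in carcinoma cells. Its level was 8.96 in round 2 and 8.40 in round 1 in ovary, against 8.62 in round 2 and 8.20 in round 1 in stomach. Within each round ovary was the higher, but the sites overlapped, since stomach of round 2 exceeded ovary of round 1. The difference was 0.27 (95% interval -0.37 to 0.91, limma adjusted p = 1.0), with 0.35 in round 2 and 0.20 in round 1. Its standard error was 0.24, and 0.093 with the round as a block (limma adjusted p = 0.77). Without the ovary round 2 array, in the fit with no block, it was -0.011.

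The other receptors were less far apart. EPHA1, the first Eph receptor to be described, stood at 9.38 in round 2 and 8.95 in round 1 in ovary, against 9.32 in round 2 and 9.38 in round 1 in stomach. Only the ovary round 1 array was low, and the difference was 0.068 in round 2 and -0.43 in round 1, with a mean of -0.18 ± 0.17 that became 0.034 without that array. EPHB4, the receptor of ephrin-B2 that marks venous endothelium, had levels of 10.31 and 10.16 in ovary, against 10.30 and 10.22 in stomach (round 2 first at each site). EPHB3, which with EphB2 positions cells along the intestinal crypt, had 6.86 and 6.74 in ovary and 6.77 on both stomach arrays. For both genes the arrays of the sites overlapped. The 95% interval of the site difference was -0.29 to 0.24 for EPHB4 and -0.22 to 0.27 for EPHB3. Their directions turned when 1 array was left out: EPHB4 became 0.048 without ovary round 1 and 0.015 without stomach round 2, and EPHB3 became -0.038 without ovary round 2. The 2 stomach values of EPHB3 are identical as deposited, as are 2 of the 4 values of EPHA1. Such identical values occur in 11.1% of tested genes. The SD of 0 that they give EPHB3 in stomach is no measure of the array's error.

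**Figure D1:**
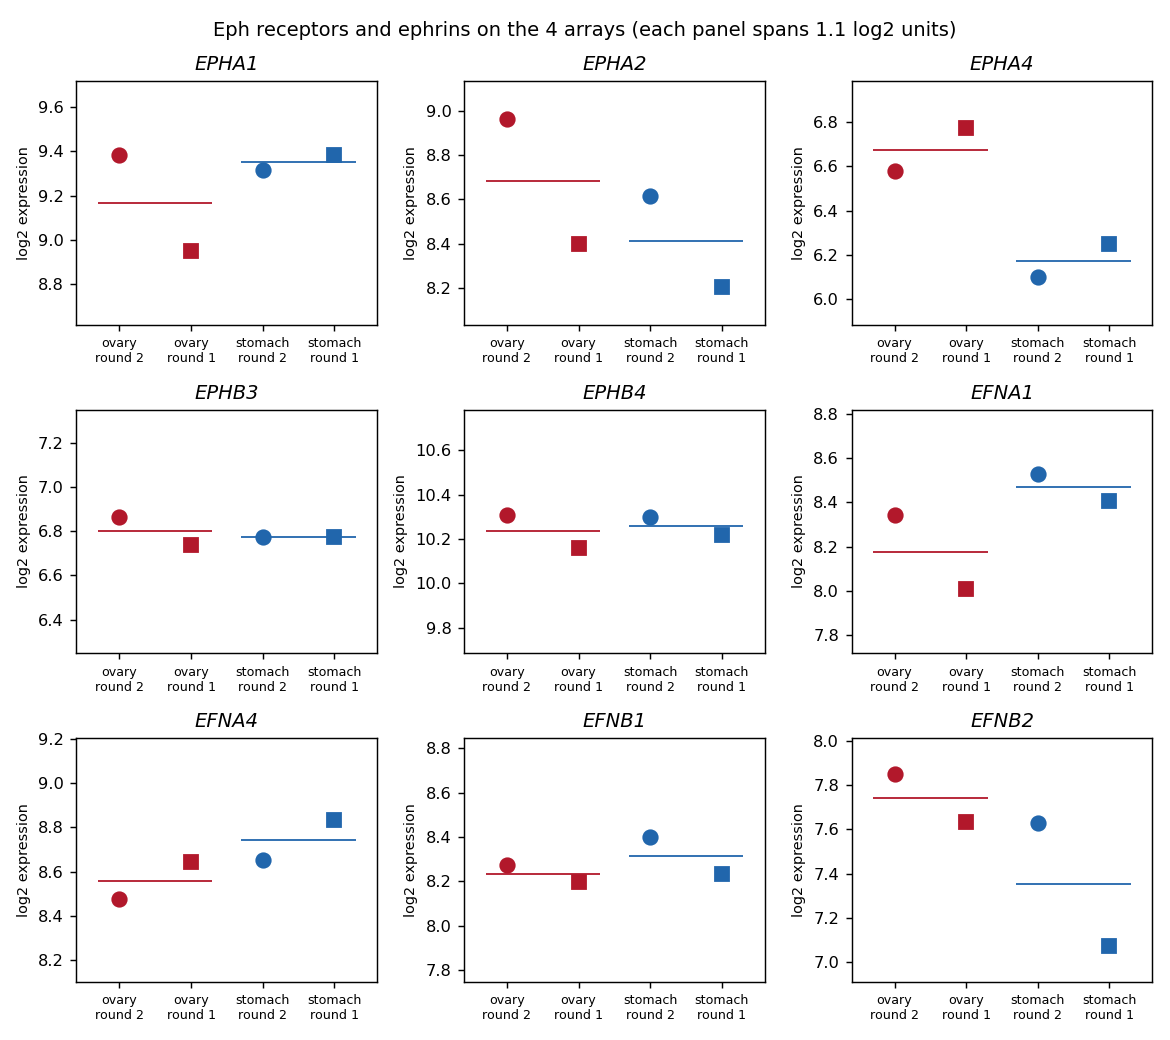
Log2 expression of the 9 members (vertical axes, each spanning the same 1.1 log2 units) on the 4 arrays, ovary in red and stomach in blue, round 2 as circles and round 1 as squares, with lines at the mean of the 2 arrays of a site. EPHA4 and EFNB2 have both ovary arrays above both stomach arrays, EFNA1 and EFNA4 have both below, and the points of EPHB3 and EPHB4 lie close together.

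Among the member ligands, EFNA1, EFNA4 and EFNB1 stood lower and EFNB2 higher in ovary in each round. EFNA1 encodes ephrin-A1, the ligand of EphA2. Its level was 8.34 in round 2 and 8.01 in round 1 in ovary, against 8.53 in round 2 and 8.41 in round 1 in stomach, with both ovary arrays below both stomach arrays. The difference was -0.29 (95% interval -0.67 to 0.09, limma adjusted p = 1.0), or 0.817-fold, with -0.18 in round 2 and -0.40 in round 1. Its standard error was 0.145, and 0.098 with the round as a block (limma adjusted p = 0.77). The difference was -0.12 without ovary round 1 and -0.46 without ovary round 2. Within each round the site difference of EFNA1 thus stood on the opposite side of 0 from that of EPHA2. Between rounds the 2 genes went the same way, both higher in round 2 at both sites. The round difference of EFNA1 was 0.34 in ovary and 0.12 in stomach, and that of EPHA2 was 0.56 and 0.41. EFNA4, a second lipid-anchored ephrin, stood at 8.47 in round 2 and 8.64 in round 1 in ovary, against 8.65 in round 2 and 8.83 in round 1 in stomach. Its difference was almost the same in the 2 rounds, -0.18 and -0.19, although ovary round 1 lay just under stomach round 2. The mean difference of -0.18 ran from -0.27 without stomach round 2 to -0.093 without stomach round 1.

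EFNB2 encodes ephrin-B2, the transmembrane ligand of EphB4 and a marker of arterial endothelium. Its level was 7.85 in round 2 and 7.63 in round 1 in ovary, against 7.63 in round 2 and 7.07 in round 1 in stomach. The stomach round 1 array was low and the other 3 were closer together, so that ovary round 1 exceeded stomach round 2 only in the third decimal. The difference was 0.39 (95% interval -0.17 to 0.95, limma adjusted p = 1.0), or 1.31-fold, with 0.22 in round 2 and 0.56 in round 1, and it was 0.11 without the stomach round 1 array and 0.67 without stomach round 2. Its standard error was 0.21, and 0.11 with the round as a block (limma adjusted p = 0.77). The endothelial markers, of which CDH5 is a defining one, had 1 of 7 tested genes higher in ovary on average (50.6% of all tested genes) and a median difference of -0.038. CDH5 itself stood at 6.08 and 6.12 in ovary, against 6.08 and 6.16 in stomach (round 2 first at each site). EFNB1, which encodes ephrin-B1, had 8.27 and 8.19 in ovary, against 8.40 and 8.23 in stomach, and its arrays overlapped. In round 2 ovary minus stomach was -0.12, in round 1 -0.038, and the mean became 0.0018 without stomach round 2.

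By their means 4 of the 9 were higher in ovary (50.6% of all tested genes) and 5 lower (49.3%), while 3 of 9 were higher in both rounds (25.3%) and 3 of 9 lower in both (24.7%). The arrays of the sites did not overlap with ovary higher for 2 members, EPHA4 and EFNB2 (13.4% of tested genes), and with ovary lower for 2, EFNA1 and EFNA4 (11.2%). The median site difference of the 9 was -0.025, and that of all tested genes was 0.002. By class, the median was 0.025 for the 5 receptors, with opposite signs in the rounds (0.087 in round 2 and -0.038 in round 1). For the 4 ligands it was -0.13 (-0.15 in round 2 and -0.11 in round 1). Epithelial markers had 1 of 8 higher in ovary on average, with a median of -0.13 (-0.007 in round 2 and -0.24 in round 1) and the lowest sum on ovary round 1, and leukocyte markers 0 of 8, with a median of -0.065. Ovarian and mesothelial markers had 4 of 5 and 3 of 5 tested genes higher, with medians of 0.060 and 0.048. The part of these cell types in the members' differences was not tested. With 2 arrays against 2, an exact two-sided permutation test of a single gene cannot go below p = 0.333.

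**Figure D2:**
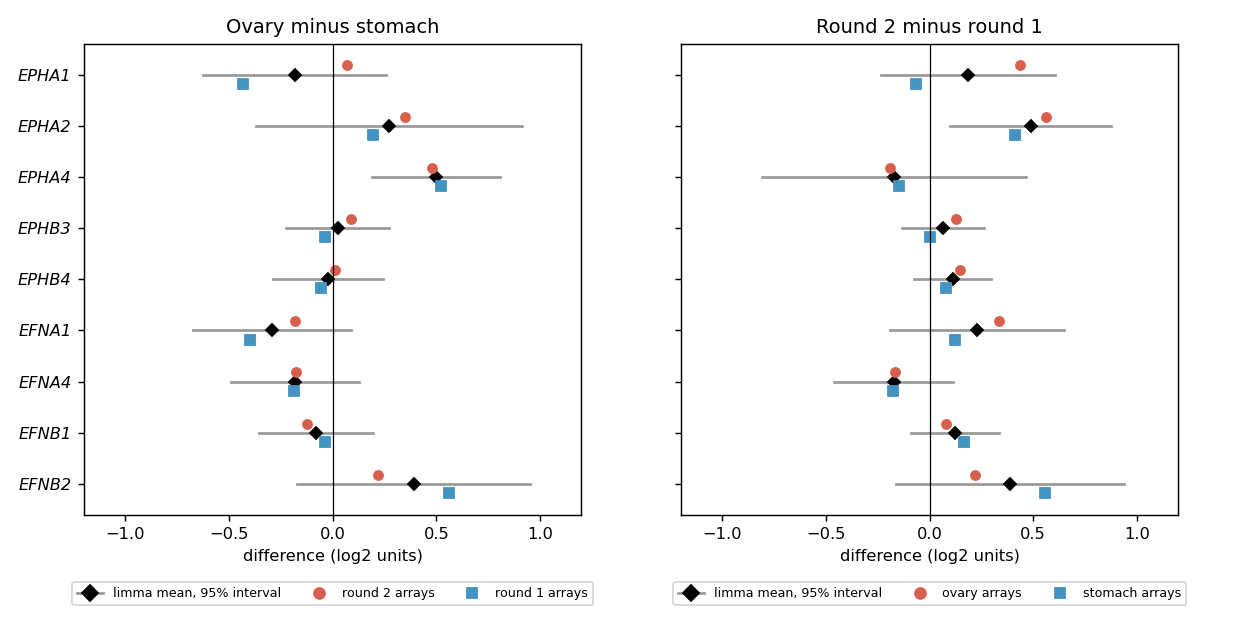
Difference between sites (left, ovary minus stomach) and between rounds (right, round 2 minus round 1) for each member, in log2 units on the horizontal axes, with diamonds for limma's mean, bars for its 95% interval and coloured points for the single-array differences. The interval leaves out 0 for EPHA4 between sites and for EPHA2 between rounds, before adjustment over all genes.

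Rounds were compared to see what set cells of the second implantation apart from those of the first. EPHA2 had the largest mean difference of the members, 1.4-fold higher in round 2, followed by EFNB2 at 1.31-fold. EFNA1, EPHB4 and EFNB1 were also higher in round 2 at both sites, and EPHA4 and EFNA4 were lower at both. None passed the test: limma called 0 of 9 members and 0% of all tested genes. At an unadjusted p under 0.05 it had 1 of 9, EPHA2, against 15.0% of all tested genes. With the site as a block it had 2 of 9, EPHA2 and EFNB2, against 16.2%, and the smallest adjusted p of a member was 0.215.

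For EPHA2 both round 2 arrays, with a mean of 8.79 ± 0.25, lay above both round 1 arrays, with a mean of 8.30 ± 0.14 (SD, n = 2 each). The difference was 0.49 (95% interval 0.10 to 0.88, limma adjusted p = 0.296), with 0.56 in ovary and 0.41 in stomach. At least as far up by the smaller of these were 173 genes, 1.19% of those tested. The round took 75.0% of the sum of squares of EPHA2, against 51.5% over all tested genes. EFNB2 averaged 7.74 ± 0.16 in round 2 and 7.35 ± 0.40 in round 1 (SD, n = 2 each). The difference of EFNB2 was 0.39 ± 0.21 (standard error from limma), with 0.22 in ovary and 0.56 in stomach. Its rounds overlapped by the nearly equal values of ovary round 1 and stomach round 2, and without stomach round 1 the difference was 0.11.

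Smaller differences were those of EFNA1 (0.23 ± 0.16, adjusted p = 0.513), EFNB1 (0.12 ± 0.080, adjusted p = 0.494) and EPHB4 (0.11 ± 0.071, adjusted p = 0.48), all with limma. Both round 2 arrays lay above both round 1 arrays for EFNB1 and EPHB4, but not for EFNA1. The difference of EFNA1 ran from 0.030 without ovary round 1 to 0.43 without stomach round 1, and that of EFNB1 was 0.060 without stomach round 2. The 2 round 2 values of EPHB4 lay closest together among the members, with an SD of 0.0063. EFNA4 differed by -0.17 ± 0.11, with -0.17 in ovary and -0.18 in stomach, and ran from -0.27 without ovary round 1 to -0.079 without stomach round 1. EPHA4 differed by -0.17 ± 0.24, with -0.19 in ovary and -0.15 in stomach, and its direction turned without ovary round 1 (0.089) or stomach round 2 (0.067). EPHB3 and EPHA1 did not keep 1 direction at the 2 sites: EPHB3 was 0.13 higher in ovary and equal in stomach, and EPHA1 differed by 0.43 in ovary and -0.068 in stomach. The mean round difference of EPHA1, 0.18, became -0.034 without ovary round 1.

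By their means 7 of 9 members were higher in round 2 (45.4% of tested genes) and 2 lower (54.5%). Higher at both sites were 5 of 9, against 29.0% of tested genes, and lower at both 2 of 9, against 34.7%. The round 2 arrays lay wholly above those of round 1 for 3 members, EPHA2, EPHB4 and EFNB1 (22.2% of tested genes), and wholly below for 0 (26.8%). The median round difference was 0.12 over the 9 and -0.019 over all tested genes. Epithelial markers had 7 of 8 higher in round 2 on average with a median of 0.14. Leukocyte and fibroblast markers had 1 of 8 and 0 of 5 tested genes higher, with medians of -0.057 and -0.087. Endothelial markers had 1 of 7, ESAM, which differed by 0.97. The part of these cell types in the round differences was not tested.

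**Figure D3:**
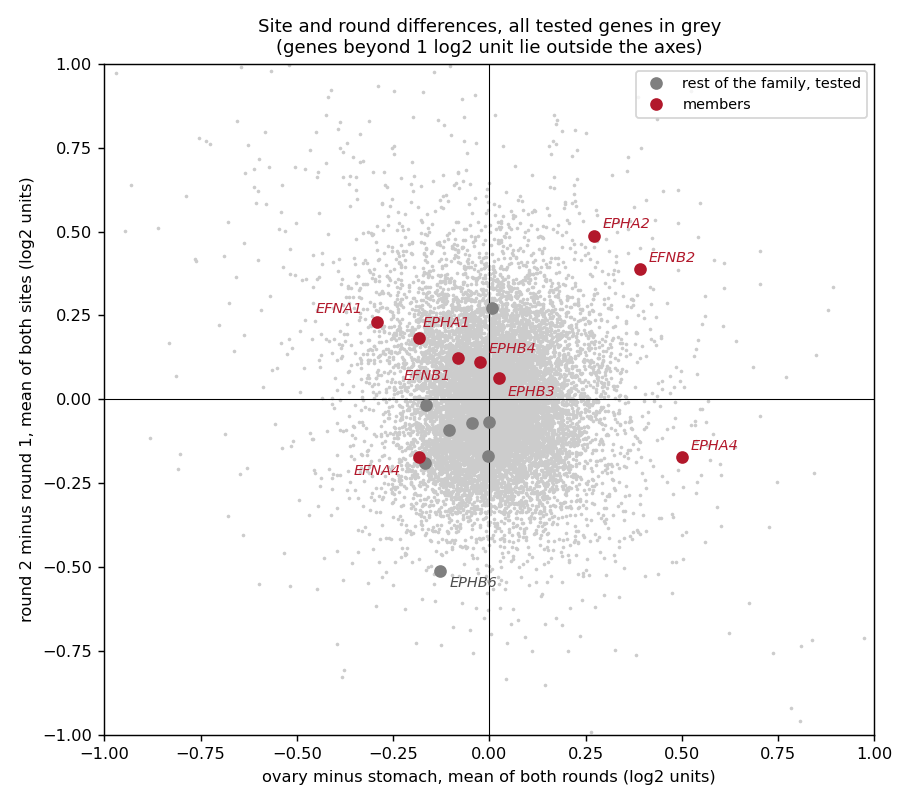
Mean ovary minus stomach difference (horizontal) against mean round 2 minus round 1 difference (vertical), both in log2 units, for the 9 members (red), the rest of the family that was tested (dark grey) and all tested genes (light grey). EPHA2 and EFNB2 lie at the upper right, EPHA4 lies far right and slightly below 0, and EPHB6 is the lowest of the family.

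Over the 4 arrays the members' ranges ran from 0.13 for EPHB3 to 0.78 for EFNB2, with a median of 0.43, and the median of all tested genes was 0.26. A range at least that of EFNB2 was found in 3.16% of tested genes, of EPHA2 in 3.46% and of EPHA4 in 5.07%. EPHB3 and EPHB4 were among the steadier genes, since 84.8% and 79.8% of tested genes had at least their range. No member was 1.5-fold apart in any of the 4 single-array comparisons. The background for that size was 1.22% for the sites in round 2, 2.03% for the sites in round 1, 3.39% for the rounds in ovary and 2.17% for the rounds in stomach. No member was 2-fold apart either, with 0.220% and 0.433% of tested genes between sites in round 2 and round 1, and 0.894% and 0.261% between rounds in ovary and in stomach. At a ratio at least 25% above 1 in either direction were EPHA2 and EPHA4 between sites in round 2 (7.49% of tested genes) and EPHA1, EPHA4, EFNA1 and EFNB2 in round 1 (9.79%). Between rounds these were EPHA1, EPHA2 and EFNA1 in ovary (15.7%) and EPHA2 and EFNB2 in stomach (13.4%).

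The change of the site difference with the round was fitted as an interaction, the round 2 site difference minus that of round 1. This fit had no term for site or round, so differences between sites and between rounds count in its error. With 1 array for each site and round it cannot decide whether the site difference changed. limma called 0 of 9 members and 0% of all genes, with adjusted p = 1.0 for each member. EPHA1 had the largest value, 0.50 ± 0.30, and EFNB2 the lowest, -0.34 ± 0.54. For EPHA4 it was -0.043 and for EFNA4 0.011, and the 95% interval for EPHA4 ran from -1.43 to 1.34. If the round 2 samples were exchanged, the site comparison would become this interaction apart from its sign and scale. The mean round differences would stay as they are. The round differences within each site, and the counts of genes that keep 1 direction at both sites, would change.

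Patterns close to those of the 2 members with the widest range were sought among tested genes outside the family, as the root mean square difference of values centred on each gene's mean over the 4 arrays. For EFNB2 the nearest were UTP3, a nucleolar factor of ribosome biogenesis, at 0.0643, POP1, a subunit of RNase P, at 0.0697, and the mitochondrial ribosomal protein gene MRPL1 at 0.0705. For EPHA2 they were the ubiquitin-conjugating enzyme gene UBE2B at 0.0142, GPCPD1 at 0.0283 and TNFRSF11B, which encodes the decoy receptor osteoprotegerin, at 0.0308. UBE2B stood at 8.57 in round 2 and 8.05 in round 1 in ovary, against 8.24 in round 2 and 7.83 in round 1 in stomach. With 4 arrays many genes come this near, 33 within 0.1 of EFNB2 and 81 within 0.1 of EPHA2.

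The remaining 12 genes of the family all had a row, and 8 passed the signal minimum. EPHA3, EPHA5, EPHA6 and EPHA7 lay under it, with means of 4.17 to 5.12 in ovary and 4.20 to 5.14 in stomach. Of the 8, 1 was higher in ovary on average, against 50.6% of all tested genes, and 1 in round 2, against 45.4%. In each case it was EFNA5, by 0.007 between sites (-0.16 in round 2 and 0.17 in round 1) and by 0.27 ± 0.10 between rounds. The gene furthest apart was EPHB6, whose receptor lacks kinase activity. It stood at 6.14 in round 2 and 6.67 in round 1 in ovary, against 6.28 in round 2 and 6.78 in round 1 in stomach, so that both round 2 arrays were the lower. Its round difference was -0.51 ± 0.090 (limma adjusted p = 0.287), and 38 tested genes, 0.261%, were at least as far down at both sites. The other tested genes EPHA8, EPHA10, EPHB1, EFNA2, EFNA3 and EFNB3 had round differences between -0.19 and -0.017 and mean site differences between -0.17 and 0, which for EPHA10, EPHB1 and EFNA2 had opposite signs in the 2 rounds, none of them called by limma.

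EFNA4, EFNA3 and EFNA1 neighbour each other on chromosome 1 in the RefSeq gene order, where a readthrough gene of EFNA4 and EFNA3 is also listed. All 3 were lower in ovary in both rounds, EFNA3 with -0.24 (round 2) and -0.086 (round 1). Of the 10 nearest protein-coding genes with a row, 5 on each side, 6 were also lower in both rounds, against 24.7% of all tested genes. These were LENEP, DCST1, ADAM15, DPM3, KRTCAP2 and MUC1. ADAM15, a membrane metalloprotease gene next to EFNA4, had site differences of -0.21 (round 2) and -0.17 (round 1). MUC1, which encodes a membrane mucin, had -0.18 (round 2) and -0.40 (round 1), close to the values of EFNA1. SLC50A1, next to EFNA1, had -0.12 (round 2) and 0.26 (round 1). This stretch was looked at after the values of the ephrin-A genes were seen.

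**Figure D4:**
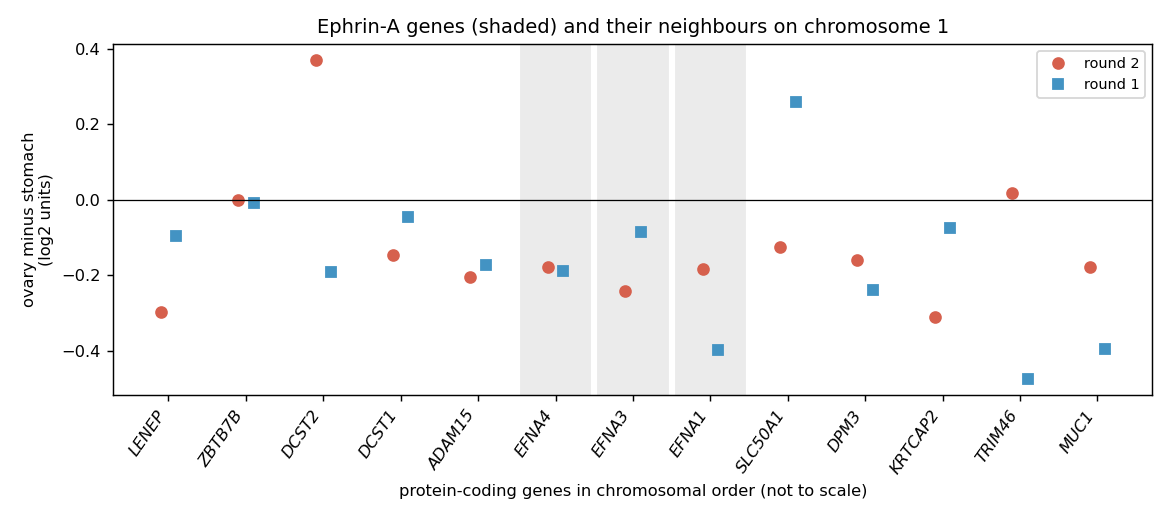
Ovary minus stomach difference in log2 units (vertical axis) in round 2 (circles) and round 1 (squares) for EFNA4, EFNA3 and EFNA1 (shaded) and 5 protein-coding neighbours on each side, in chromosomal order. The shaded genes lie below 0 in both rounds, as do 6 of the 10 neighbours, while DCST2, SLC50A1 and TRIM46 have 1 round on each side of 0.

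Further genes that act with Eph receptors were taken as lists, and limma called 0 of those described here in either comparison, as it called 0% of all tested genes. Of all tested genes 50.6% were higher in ovary and 45.4% in round 2, with medians of 0.002 and -0.019. Of 19 adaptors, cytoplasmic kinases and phosphatases, 6 were higher in ovary and 14 in round 2, with medians of -0.032 and 0.11. The widest ranges were those of the adaptor GRB10, with a round difference of -1.11 ± 0.41 (-1.34 in ovary and -0.88 in stomach), of PIK3R1, a regulatory subunit of PI3 kinase (0.53 ± 0.30, with 0.90 in ovary and 0.15 in stomach), and of the adaptor NCK2 (0.53 ± 0.26). NCK2 stood at 7.82 in round 2 in ovary, while its other 3 arrays lay between 6.84 and 7.07.

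Of 9 tested partners of ephrins and of their shedding, 4 were higher in ovary and 7 in round 2, with medians of -0.055 and 0.15. SDCBP, which encodes syntenin, a PDZ protein that binds the tail of ephrin-B, was lower in ovary by nearly the same amount in each round (-0.23 and -0.23). RHBDL2, a rhomboid protease that cleaves ephrin-B3, had a round difference of 0.64 ± 0.25, with 1.01 in ovary and 0.27 in stomach. CLDN1, a claudin that associates with ephrin-B1, stood at 8.998 on ovary round 1 alone and between 7.25 and 7.67 on the other 3 arrays, so that its site difference was 0.36 in round 2 and 1.75 in round 1. Of 8 tested WNT targets, chosen because the EphB receptors of the crypt follow WNT signalling, 5 were higher in ovary and 4 in round 2. Their medians were 0.034 and -0.050, and the widest ranges were those of ASCL2, SP5 and ZNRF3, whose site differences were 0.17 ± 0.21, -0.15 ± 0.20 and 0.21 ± 0.10. That of ASCL2 had opposite signs, 0.46 in round 2 and -0.13 in round 1, with the lowest level on stomach round 2, while SP5 was lower and ZNRF3 higher in ovary in both rounds. Of 26 other receptor tyrosine kinases, 8 were higher in ovary and 14 in round 2, with medians of -0.050 and 0.012. ROR1, PDGFRB and TIE1 had the widest ranges of the kinases, and ROR1 differed between sites by 1.15 in round 2 and -0.52 in round 1.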

How the data were processed

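Total RNA from TRIzol was biotin-labelled (WT Terminal Labeling) before hybridisation, as the labels' protocols state. The authors deposited 1 table of log2 values per probe set and array, and Affymetrix Expression Console appears among the tools of the submitters' processing notes. The sources used here give neither background correction nor normalization. Array medians lay between 6.80 and 6.84, so a shift common to all transcripts could not be seen, and precision is limited by having 4 arrays.

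The platform annotation gives 1 symbol for 19460 of 33297 probe sets, several for 1754 and none for 12083. Of the 19460, 19429 were found by gene identifier in RefSeq (GRCh38.p14), whose symbol was then used. The probe set with the highest mean represents a gene, and 14547 of 18417 genes had a mean above 5.64, the 30th percentile of all rows. Linear models with moderated variances (limma 3.58.1, R 4.3.3; two-sided, adjusted by Benjamini-Hochberg over all tested genes, threshold 0.05) were fitted on all 4 arrays for the site, the round and their interaction, each in a fit of its own with no covariate, and tested on simulated data. Across genes, same-round arrays correlated at 0.411 after subtraction of their site means. With 2 arrays per site, both pairs of arrays give this same value by construction, so it is 1 correlation. The round is also shared by label, so blocked fits were run as well. The members and lists were chosen with earlier results of these data known. All members and every other family gene are named, and of each further list the 3 genes with the widest range, except 1 list that is not reported here. Alternatives were other signal minimums, quantile normalization, centring on medians, the mean of a gene's probe sets, trended and robust priors, an adjusted p threshold of 0.10, the replicate block, leaving out each array, and other fold thresholds. Python 3.11.15 and matplotlib 3.10.9 drew the figures.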

Additional observations from a re-analysis of the deposited data

How the results depend on the processing

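The number of genes called at an adjusted p under 0.05 stayed at 0 for the site, the round and the interaction in every alternative run. The smallest adjusted p was 0.122 for the site, with the round as a replicate block, where 916 genes had an unadjusted p under 0.05 against 378 without it. It was 0.0863 for the round, on centring by array medians, and 0.99 for the interaction. With the site as a replicate block, 2358 genes had an unadjusted p under 0.05 for the round, against 2178. At an adjusted p under 0.10 the fit with no other change called 0 as well, but 0.0863 lies under that threshold. The replicate block changed no call at an adjusted p under 0.05.

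All 79 site and 79 round differences of members under alternatives that keep the 4 arrays had the main direction. Only quantile normalization and centring on medians could move them, since the other such alternatives leave a member's difference as it is. Of the interactions only that of EFNA4 turned, to -0.00042 on quantile normalization and -0.0067 on centring. EPHA4 and EPHB3 fell under the minimum at the 50th percentile and had no value there. Leaving out 1 array turned 6 of 36 site, 3 of 36 round and 10 of 36 interaction values. Site differences then ran from -0.40 to 0.034 (EPHA1), -0.011 to 0.55 (EPHA2), -0.038 to 0.088 (EPHB3), -0.098 to 0.048 (EPHB4) and -0.16 to 0.0018 (EFNB1), whereas EPHA4 kept 0.40 to 0.60. Round differences ran from -0.034 to 0.40 (EPHA1) and -0.43 to 0.089 (EPHA4). Interactions ran from -0.61 to 0.91 (EPHA2), -0.71 to 0.63 (EPHA4), -0.070 to 0.20 (EPHB4), -0.31 to 0.73 (EFNA1), -0.34 to 0.37 (EFNA4), -0.29 to 0.12 (EFNB1) and -1.12 to 0.44 (EFNB2). These fits take the lone array of a site or round to vary like the others. With 3 arrays an interaction cannot be told apart from the site and the round.

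At a ratio at least 25% above 1, 1089 genes and 2 members were apart between sites in round 2, 1424 genes and 4 members in round 1, 2287 genes and 3 members between rounds in ovary, and 1956 genes and 2 members in stomach. At 2-fold these were 32, 63, 130 and 38 genes and 0 members.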
